A study of Mus musculus with 2 samples.

Results

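The acinar saliva protein genes examined here are Smgc, Muc19, Dcpp1, Dcpp2, Dcpp3, Prol1, Bpifa2, Amy1, Pip and Car6. They were taken by the gene names on the array, with all of their non-control probes, and make up 10 of 37003 genes and 18 of 56597 probes. Expression was measured in EpCAM-positive epithelial cells that had been pulled out of submandibular gland tissue with magnetic beads, the donors being female mice of the strain C57BL/6 in the labels and C57BL/6N in the methods, untreated as far as the labels say. The young group was 9 weeks old and the aged group 24 months old, with 1 mouse and 1 array for each age and both arrays on 1 slide. According to the methods, young and aged mice came from different sources, so that age and origin cannot be told apart. RNA was labelled with Cy3 and hybridized to an Agilent mouse array with probes of 60 bases. No difference between the ages has a replicate check, and no test was made.

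Acinar cells fill the secretory end pieces of the salivary glands and release a protein-rich fluid that the ducts modify. Saliva proteins coat and lubricate the mouth (mucins and proline-rich proteins), bind or kill microbes (parotid secretory protein, peroxidase, lysozyme), start the digestion of starch (amylase) and buffer acid (secreted carbonic anhydrase). In mice, several of these genes are also known for differing between the major salivary glands and between the newborn and adult gland.

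A probe signal is the brightness of its spot in intensity units. It depends on the probe as well as on the transcript, so that ranks describe probes and give no order of transcript amounts between genes. Log2 values are given relative to the 75th percentile of the array, 256 in the young and 198 in the aged sample. A difference is aged minus young on this log2 scale, and 2-fold, the threshold named in the methods, corresponds to 1. Errors are those of the scanner software, close to 10% of a signal, which gives 0.20 for a difference. For the bright probes they equal 10% of the signal and are not a measured spread of spots. Overlap of errors there compares signals against that fixed share. Repeated spots gave a median SD of 0.033 for a difference. Neither value covers the spread between mice. A probe is called detected where the software marked it well above background, and 18 of 18 were detected at either age, with 0 saturated.

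The deposited files place the probes on NCBI37 (mm9). The probes of the 3 genes with the largest differences are shown first, 5′ to 3′, because the differences rest on these oligonucleotides. The Smgc probes lie on the forward strand at chr15:91679499-91680999, a span of 1501 bases that shows a splice junction within the probe, and at chr15:91691254-91691313. The Bpifa2 probes both cross a junction, at chr2:153840733-153841694 and chr2:153839487-153840200 on the forward strand. The Amy1 probes lie on the reverse strand, at chr3:113258901-113258960 for A_55_P1983418 and, across a junction, at chr3:113264624-113264775 for A_66_P104572.
Smgc A_51_P240191: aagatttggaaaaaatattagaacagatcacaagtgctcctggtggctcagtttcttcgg
Smgc A_55_P2733792: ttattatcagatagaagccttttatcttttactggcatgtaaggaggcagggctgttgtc
Bpifa2 A_66_P104917: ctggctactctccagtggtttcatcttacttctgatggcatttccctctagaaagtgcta
Bpifa2 A_52_P343617: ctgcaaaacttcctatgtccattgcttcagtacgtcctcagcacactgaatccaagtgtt
Amy1 A_55_P1983418: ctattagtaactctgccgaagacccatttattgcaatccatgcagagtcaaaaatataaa
Amy1 A_66_P104572: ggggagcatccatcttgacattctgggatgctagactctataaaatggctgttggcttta

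With age, the members divided into lower genes, higher genes and genes under 2-fold. By the brightest probe, Smgc was 2-fold or more lower (1 of 10 members), Bpifa2 and Amy1 were 2-fold or more higher (2 of 10), and the other 7 genes differed by less. The direction of Amy1 was not shared by its other probe. Among the 18745 genes detected at both ages, 3.05% passed 2-fold downwards and 1.52% upwards. These were 571 and 284 genes, against 417 and 464 with each array centred on its median and 915 and 151 after scaling to the spike-in controls. Counted by probes, 2 of the 18 were past 2-fold downwards and 3 upwards, against 2.8% and 1.41% of 26745 probes detected at both ages. The median difference of the members was 0.38, beside 0.09 over all genes so measured. With 10 members these counts and medians are a description only.

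**Figure D1:**
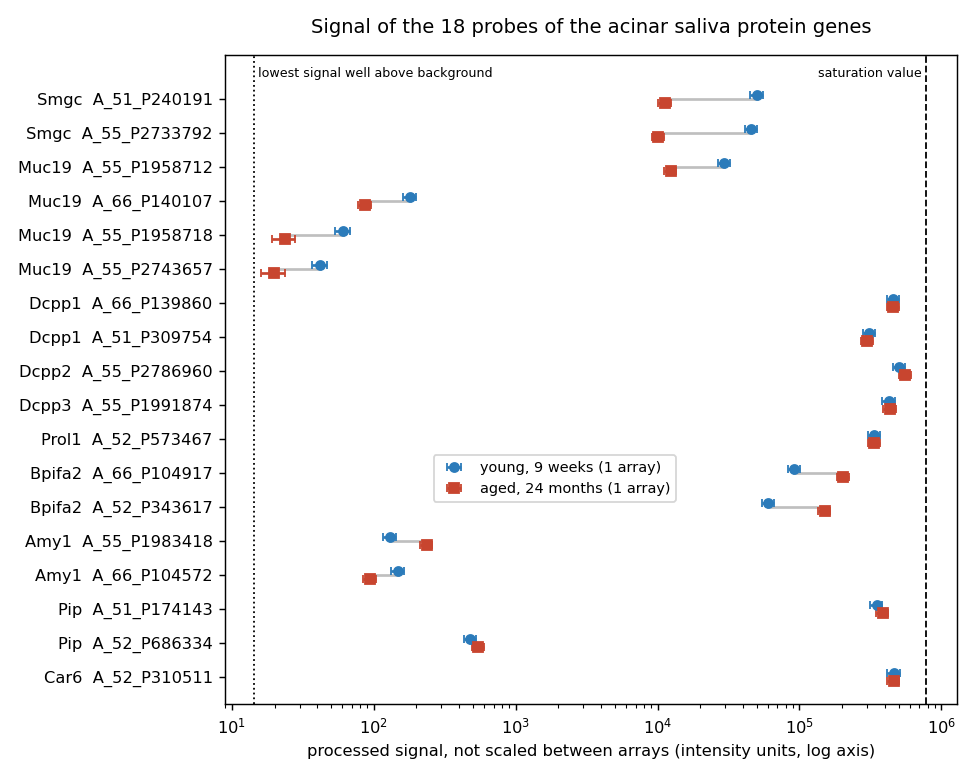
Processed signal (log axis, not scaled between arrays) of the 18 probes on the young array (circles) and the aged array (squares), with the error of the scanner software as bars. The dotted line marks the lowest signal well above background and the dashed line the saturation value of the scanner. Both Smgc probes and the 4 Muc19 probes lie lower for the aged sample and both Bpifa2 probes higher, whereas the probes of Dcpp1, Dcpp2, Dcpp3, Prol1, Car6 and the bright Pip probe lie at 300810 or above on both arrays with overlapping error bars.

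Smgc encodes submandibular gland protein C, a secreted protein known from the terminal tubule cells of the newborn gland and from intercalated ducts of the adult gland. Its brightest probe had a young signal of 50183 ± 5018 and an aged signal of 11245 ± 1124. The difference was -1.79 ± 0.20, which is 3.45-fold lower with age. The second probe, further downstream in the same transcript, gave 45751 ± 4575 and 10142 ± 1014, a difference of -1.80. The differences of the probes thus lay 0.016 apart on the log2 scale, and both were low in the aged sample with no overlap of the errors. In rank among all 56597 probes, which dividing an array by a constant does not change, the brightest Smgc probe went from 170 to 976.

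Muc19 encodes a gel-forming mucin of mucous saliva. It shares its locus with Smgc, and the transcripts arise by alternative splicing. The files hold 4 Muc19 probes, all with lower signals in the aged sample. The brightest one, A_55_P1958712 at chr15:91764926-91764985, starts at base 22734 of the Muc19 transcript. Its young signal was 29646 ± 2965 and its aged signal 12362 ± 1236. This gave a difference of -0.89 ± 0.20, or 1.85-fold lower. Its rank went from 344 to 901.

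The other Muc19 probes were much dimmer. A_66_P140107, which starts at base 3547, had signals of 180 and 86.4 and a difference of -0.69. A_55_P1958718, which starts at base 3913, had signals of 60.7 and 23.5 and a difference of -0.996, just short of the threshold at 1.99-fold lower. A_55_P2743657 had signals of 41.7 and 20.0 and a difference of -0.69. The files map this probe to the reverse strand at chr15:91736689-91736748, opposite to the other 3, and to no RefSeq transcript of Muc19. Of the 4 probes, 0 passed 2-fold under the 75th percentile scaling. The values of the dim probes moved with the processing: with normexp background correction they were -0.37, -0.22 and -0.02 in the order given, and with the spike-in controls -0.94, -1.25 and -0.94.

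The Smgc difference lay 0.90 below that of Muc19 by their brightest probes, with an error of 0.29, and between 0.87 and 0.92 below it over the 7 scalings tried. A constant per array cancels in such a gap. Only quantile normalization, the loess and normexp could therefore change it. The Muc19 probes lie downstream of the Smgc probes on the same strand, except for the reverse-strand probe. The brightest probe of Smgc stayed at least 2-fold lower under all 7 scalings, from -2.34 to -1.61. That of Muc19 ranged from -1.47 to -0.72 and passed 2-fold under 4 of the 7.

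Bpifa2 encodes parotid secretory protein, a member of the BPI fold family that binds bacteria and their lipopolysaccharide. The brightest probe had 91878 ± 9188 in the young and 204070 ± 20407 in the aged sample. The difference was 1.52 ± 0.20, or 2.87-fold higher. The second probe gave 60268 ± 6027 and 150531 ± 15053, a difference of 1.69 or 3.23-fold. Both probes were high in the aged sample with no overlap of the errors, and their ranks went from 86 to 33 and from 141 to 51. The brightest probe was at least 2-fold higher under 6 of 7 scalings. The exception was the loess curve, which removes any trend of differences with brightness and left 0.81 for this probe and 1.02 for the second one.

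Bpifa2 and Smgc thus differed in opposite directions. Their differences lay 3.31 apart on the log2 scale, with an error of 0.29, and between 3.12 and 3.54 apart over the 7 scalings. Here too, only quantile normalization, the loess and normexp could change the gap, since a constant per array cancels in it.

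Amy1 encodes salivary amylase. Its probes disagreed on the direction. The probe taken as brightest, A_55_P1983418, starts at base 1681 of the transcript and had signals of 130 ± 13.4 and 236 ± 23.8 at 9 weeks and 24 months. Its difference was 1.23 ± 0.21, or 2.35-fold higher. The other probe, A_66_P104572, starts at base 1171 and had signals of 148 ± 15.3 and 93.5 ± 10.04, a difference of -0.29 ± 0.21. It was the brighter at 9 weeks, so that A_55_P1983418 had the higher mean log2 signal only through its aged value. Before scaling between the arrays, the signals of neither probe overlapped within their errors. The aged signal was then high for A_55_P1983418 and low for A_66_P104572. After scaling, the difference of A_66_P104572 was little larger than its error.

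The files assign both Amy1 probes to the same 2 RefSeq transcripts. Of the 6 members with several probes, Amy1 alone had probes more than 1 apart on the log2 scale, with 1.52 between them. The same held for 6.09% of the 5653 genes with several probes detected at both ages. No direction for Amy1 can be given from these probes. The gene was also the dimmest of the members by its brightest probe, with ranks of 16053 and 11441. Of its near-identical pancreatic copies, Amy2a5 was detected in the aged sample only, with signals of 16.0 and 23.6, and Amy2b and Amy2a4 were detected in neither.

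**Figure D2:**
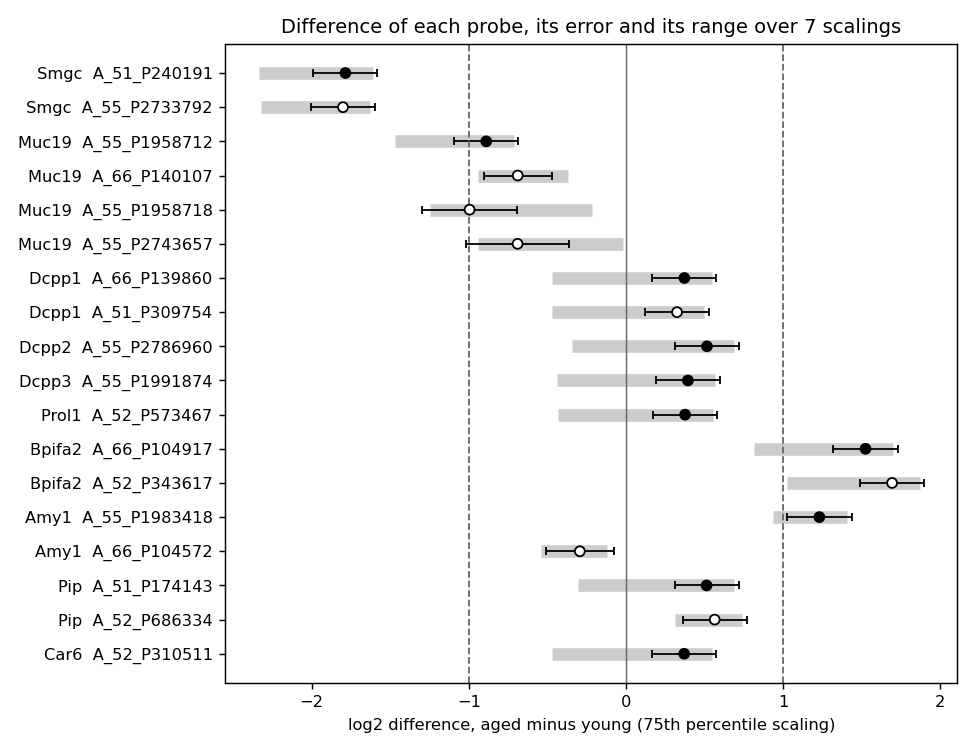
Difference of each of the 18 probes, aged minus young on the log2 scale, with the error of the scanner software as bars and the range over 7 scalings as grey bands. Filled circles are the brightest probe of a gene, open circles its other probes, and dashed lines mark 2-fold. Smgc stays left of -1 and the second Bpifa2 probe right of 1 in the whole range, the Amy1 probes lie on opposite sides of 0, and the bands of Dcpp1, Dcpp2, Dcpp3, Prol1, Car6 and the brightest Pip probe cross 0.

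Dcpp1, Dcpp2 and Dcpp3 encode demilune cell and parotid proteins, small secreted products of near-identical neighbouring genes. Their probes are shown because they decide which copies can be told apart. They lie on the forward strand at chr17:24019549-24019608 (Dcpp1, A_66_P139860), chr17:24037645-24037704 (Dcpp2) and chr17:24056202-24056261 (Dcpp3), and the second Dcpp1 probe is unmapped in the files.
Dcpp1 A_66_P139860: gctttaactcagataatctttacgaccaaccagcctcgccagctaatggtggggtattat
Dcpp1 A_51_P309754: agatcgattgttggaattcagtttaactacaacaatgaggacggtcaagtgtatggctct
Dcpp2 A_55_P2786960: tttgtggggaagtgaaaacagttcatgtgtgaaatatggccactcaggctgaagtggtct
Dcpp3 A_55_P1991874: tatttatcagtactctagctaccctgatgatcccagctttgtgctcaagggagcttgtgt

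The probe named for Dcpp2 is matched in the files to RefSeq transcripts of all 3 genes, so its signal cannot be assigned to Dcpp2 alone. The probe A_66_P139860 is matched to Dcpp1 transcripts and the Dcpp3 probe to Dcpp3 transcripts. No pair of these probes shares a stretch of more than 7 bases. The probes were compared with each other and not with the transcripts of the other copies. This does not show whether a probe is specific to its copy.

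The brightest Dcpp1 probe had signals of 459091 ± 45909 at 9 weeks and 458742 ± 45874 at 24 months. The second Dcpp1 probe had 311019 and 300810. The Dcpp2 probe had 505578 ± 50558 and 558086 ± 55809, and the Dcpp3 probe 427763 ± 42776 and 434134 ± 43413. Before scaling between the arrays, all 4 pairs of signals overlapped within their errors. The brightest probes of Dcpp1, Dcpp2 and Dcpp3 kept ranks 5, 2 and 7 on both arrays. Relative to the 75th percentile, their differences were 0.37, 0.51 and 0.39, all above the error of 0.20 and under 2-fold.

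Prol1, also called Muc10, encodes a proline-rich mucin-like salivary protein. Its only probe, at chr5:88757596-88757655, had 336793 ± 33679 and 337564 ± 33756, at rank 13 on both arrays, a difference of 0.38. Car6 encodes carbonic anhydrase 6, the secreted form of the enzyme. Its only probe, at chr4:149561287-149561346 on the reverse strand, had 461988 ± 46199 and 461163 ± 46116, at rank 4 on both, a difference of 0.37. For both genes the signals overlapped within their errors before scaling.

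Pip encodes prolactin-induced protein, a secreted glycoprotein. The probe matched to the RefSeq transcript, at chr6:41801874-41801933, had 350050 ± 35005 and 385727 ± 38573, at ranks of 12 and 10. Before scaling, the errors of this probe overlapped. Its difference was 0.51. The other Pip probe, at chr6:41800850-41800909, is matched to an Ensembl transcript and to no RefSeq one, and its signals were 478 ± 47.9 and 546 ± 54.7. Its difference of 0.56 lay within 0.052 of the first.

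The brightest probes of Dcpp1, Dcpp2, Dcpp3, Prol1, Pip and Car6 were all among the 13 brightest of 56597 probes on each array. Before scaling, their aged signals were between 0.998 and 1.10 times the young ones, so that their differences of 0.37 to 0.51 are near 0.37, the amount that dividing by the 75th percentiles adds on the log2 scale. The direction of these differences depended on the scaling. With the loess all 6 were below 0, from -0.47 for Car6 and Dcpp1 to -0.31 for Pip. With quantile normalization they were 0 for 5 genes and 0.09 for Pip. That method gives equal values to probes of equal rank, so the 0 only restates that those 5 genes kept their ranks. No member of these 6 reached 2-fold under any of the 7 scalings.

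Other probes at the very top of the array were also close to level before scaling. Over the 50 brightest probes, 7 of which belong to these 6 genes, the median log2 ratio before scaling was -0.045, against -0.29 over all 26745 probes detected at both ages. In the 50, 32 probes (64.0%) had a ratio within 0.2 of 0 before scaling, against 31.4% of all. Over the 500 brightest probes the median was 0.098 and 35.4% were within 0.2 of 0. The signals of the 6 genes lay between 43.2% and 71.6% of the scanner's saturation value of 779841. Whether probes this bright were still proportional to the amount of transcript was not tested.

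**Figure D3:**
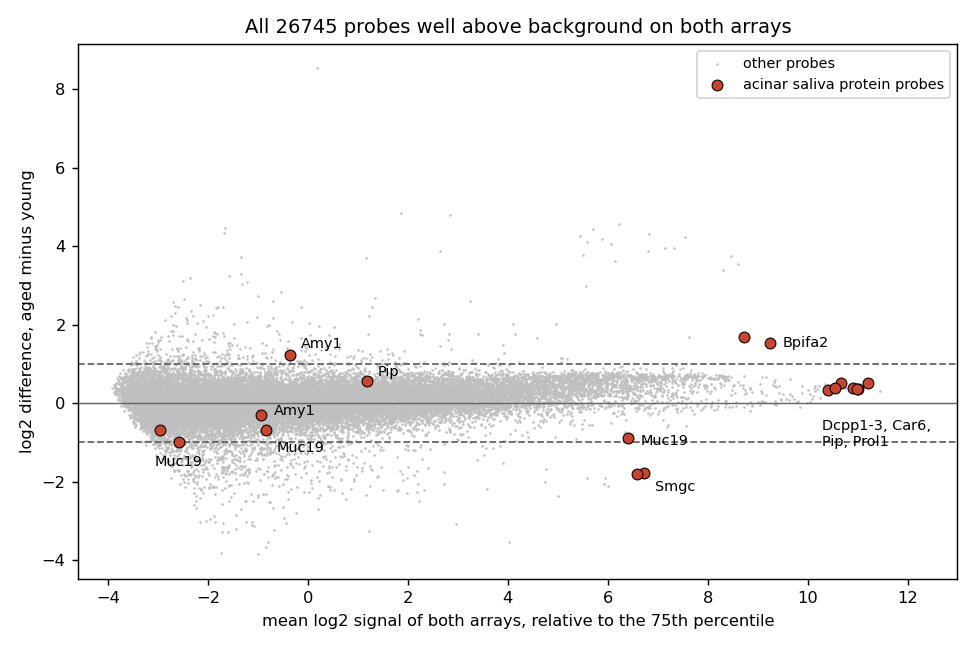
Difference (aged minus young, log2) against the mean log2 signal of both arrays for the 26745 probes detected at both ages, in grey, with the 18 probes of the acinar saliva protein genes in red and 2-fold as dashed lines. The probes of Dcpp1, Dcpp2, Dcpp3, Car6, Prol1 and the bright Pip probe sit together at the right end, with differences of 0.32 to 0.51 under this scaling, whereas Bpifa2 lies above and Smgc below most probes of like brightness.

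Promoter windows of 300 bases, from 250 bases before to 50 after the start of transcription, were read from RefSeq for 9 of the 10 members on GRCm38.p6, a later build than that of the probes. Those of Smgc (chr15:91838078-91838377) and Bpifa2 (chr2:154008026-154008325), both on the forward strand, are shown because these genes differed in opposite directions. Capitals mark the motif TATAAA, the core of a TATA box.
Smgc promoter: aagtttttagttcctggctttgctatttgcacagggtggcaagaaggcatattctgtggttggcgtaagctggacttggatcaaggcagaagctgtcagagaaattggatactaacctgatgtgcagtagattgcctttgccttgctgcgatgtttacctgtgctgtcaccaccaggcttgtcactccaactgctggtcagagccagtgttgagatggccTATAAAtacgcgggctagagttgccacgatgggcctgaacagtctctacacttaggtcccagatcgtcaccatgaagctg
Bpifa2 promoter: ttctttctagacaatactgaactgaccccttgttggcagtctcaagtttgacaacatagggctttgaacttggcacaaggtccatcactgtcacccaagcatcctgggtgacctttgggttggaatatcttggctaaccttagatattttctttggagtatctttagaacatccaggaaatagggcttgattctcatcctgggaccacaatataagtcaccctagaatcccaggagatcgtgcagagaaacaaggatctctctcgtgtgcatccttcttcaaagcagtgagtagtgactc

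On either strand, TATAAA was found in 3 of the 10 windows of the members, Amy1 having 2 windows, and in 13.6% of all 32851 promoter windows. The 3 were those of Smgc, Pip and 1 of the Amy1 starts, and in Smgc the motif began at position -30. The E-box CAGCTG, a motif of basic helix-loop-helix factors such as the acinar factor Bhlha15, was found in 1 of the 10, that of Car6, and in 16.3% of all windows. The motifs do not overlap each other. These matches describe the letters of the windows only.

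Acinar identity was read from a list of 10 markers. All 10 were detected at both ages and 0 of them differed by 2-fold, with a median difference of 0.15 and a range from -0.42 for Slc12a2, the basolateral chloride importer, to 0.98 for Lpo, salivary peroxidase. Aqp5, the apical water channel, had signals of 39817 and 43188 and a difference of 0.49. Bhlha15 had 25918 and 19434 and a difference of -0.04. The acinar markers were thus present at both ages. In cells taken in bulk, fewer cells of a type and less RNA per cell cannot be told apart.

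Among the other epithelial lists, the 17 granular duct genes had 0 past 2-fold and a median of -0.12. The other duct list had 0 of 8, a median of 0.31 and the highest value in Kit, at 0.91. The general epithelial list had 0 of 5 and a median of 0.07. The basal and myoepithelial list had 2 of 7 past 2-fold downwards, namely Cnn1 with -2.14 and Myh11 with -1.83. This count depends on the probe, since the other Myh11 probe gave 0.12, and Acta2 had -0.08 by its brightest and -1.96 by its other probe. Of the mucous cell list, 1 of 4 genes detected at both ages passed 2-fold upwards and 0 downwards, with a median of 0.60. Gcnt3 had a difference of 1.07 at signals of 26.8 and 43.5, Agr2 0.76, Spdef 0.45 and Galnt12 -0.80. Muc5b was detected in the young sample only, with signals of 14.4 and 7.96, and Tff2 in neither. Of the exocrine pancreas list, 5 of 8 genes were detected at neither age and 0 of the 2 detected at both passed 2-fold.

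Markers of some other cell types were lower in the aged sample beside the differences described here. Of the macrophage and dendritic cell list, 4 of 6 genes passed 2-fold downwards, with a median of -1.21. These were Itgax with -1.64, Flt3 with -1.45, Adgre1 with -1.36 and Cd68 with -1.06, whereas Csf1r had -0.62 and Itgam -0.05, and the other, dimmer Itgax probe gave 0.42. The summed level of this list on the log2 scale, relative to the 75th percentile, was 6.49 at 9 weeks and 6.18 at 24 months. Of the fibroblast list, 3 of 4 genes detected at both ages passed 2-fold downwards, with a median of -1.59 and summed levels of 4.18 and 3.08. The endothelial list had 0 of 4, with a median of -0.56. The B cell, plasma cell and T cell lists had 2, 3 and 3 genes detected at both ages, of which 1, 1 and 0 passed 2-fold downwards and 0 upwards. Cd79a and Cd8a were detected at neither age. The part of these cells in the values of the saliva protein genes was not tested.

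**Figure D4:**
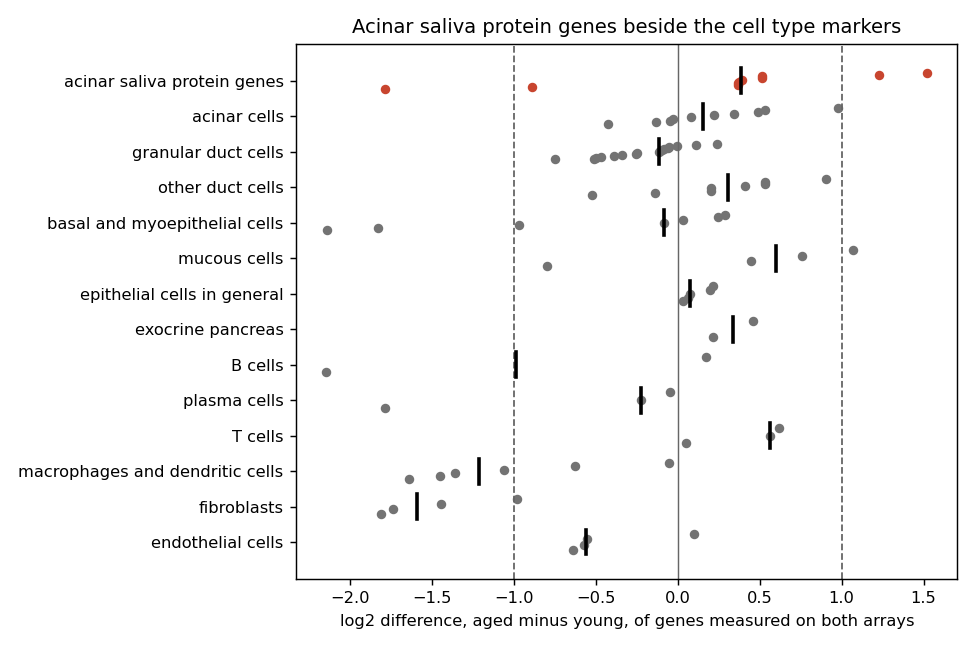
Difference (aged minus young, log2) of each gene detected at both ages, by list, with the list median as a black bar and 2-fold as dashed lines. The saliva protein genes, in red, spread from -1.79 to 1.52, whereas the 10 acinar cell markers stay between -0.42 and 0.98, and the macrophage and fibroblast medians lie at -1.21 and -1.59.

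Of 29 other genes of saliva or glandular secretions that were listed for comparison, 28 had a probe, 22 were detected at both ages, 2 at 1 age and 4 at neither. Of the 22, 4 passed 2-fold upwards and 4 downwards, with a median of 0.34, beside the shares of all genes given above. Neither of the genes detected at 1 age passed 2-fold by its limit, and with such genes counted the shares over all 21346 genes were 2.53% upwards and 5.14% downwards.

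Higher with age were Dmbt1, Ltf, Smr3a and Dnase1. Dmbt1, a salivary agglutinin that binds bacteria, had a young signal of 27.5 and an aged signal of 282, a difference of 3.73. Ltf, lactoferrin, had 18.4 and 88.8, a difference of 2.64. Smr3a, an androgen-regulated product of the submandibular gland, had 45.4 and 142, a difference of 2.02, and its other probe gave 1.47. Dnase1, a secreted nuclease, had 978 and 2564, a difference of 1.76, and its other probe gave 1.85. Dmbt1, Ltf and Smr3a were dim in the young sample.

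Lower were the lysozyme genes Lyz1 and Lyz2 and the cystatin genes Cst10 and Cst3. Lyz1 had a young signal of 6529 and an aged one of 1110, a difference of -2.18. Lyz2, which is also a macrophage gene, had 23810 and 4884, a difference of -1.91, and its other probe gave -1.94. Cst10 had 540 and 101, a difference of -2.05. Cst3, a widely expressed inhibitor of cysteine proteases, had 5375 and 1958, a difference of -1.09, and its other probe gave -1.14. Of the 6 macrophage and dendritic cell markers, 4 were lower as well, as given above, and their part in the Lyz1 and Lyz2 values was not tested.

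The genes of this list with the brightest probes were under 2-fold. Mucl2, a mucin-like gene, had 352212 and 361408, at ranks 11 and 12. Wfdc12 had 137402 and 123396, and Wfdc18 81754 and 64979, both encoding secreted proteins with a WAP domain. Lpo had 30162 and 45988, and Pigr, the receptor that carries polymeric immunoglobulin into saliva, 45982 and 43959. The proline-rich protein genes Prb1, Prh1 and Prpmp5 had differences of -0.36, -0.13 and 0.10. Bpifa1 and Bpifb1, relatives of Bpifa2, had 493 and 484, and 415 and 404, with differences of 0.35 and 0.33, so that within the family members listed Bpifa2 alone passed 2-fold. Bpifb2 was detected at neither age.

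**Figure D5:**
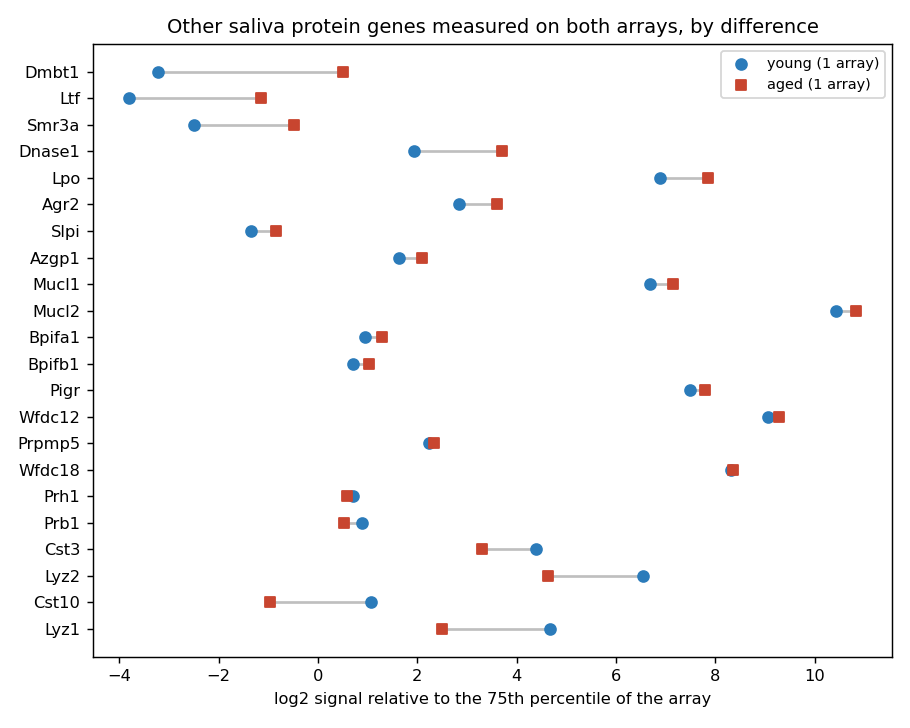
Log2 signal relative to the 75th percentile of the array for the 22 other saliva protein genes detected at both ages, young (circles) and aged (squares), ordered by difference. Dmbt1, Ltf, Smr3a and Dnase1 at the top passed 2-fold upwards with age and Cst3, Lyz2, Cst10 and Lyz1 at the bottom downwards.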

How the data were processed

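Cy3-labelled RNA of 1 young and 1 aged sample was hybridized to Agilent 8 x 60K mouse arrays. The deposited scanner files, made with Agilent Feature Extraction 12.0.3.1, give a spot intensity from which the software had removed a fitted background and multiplicative trends, not yet scaled between arrays. In the authors' processed table, each array's intensity values are those of the scanner file over a constant (229 and 176, met within 0.1% by 100% of spots). Its median was 0.092 for the young and 0.082 for the aged column.

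The processed signal of each spot was divided by the 75th percentile of 59305 non-control spots and put on the log2 scale. Of these, 55.4% and 50.8% were well above background on the young and aged arrays. Outlier spots (90 and 93) were left out on both arrays and spots of a probe averaged. For 271 probes with repeated spots, the difference had a median SD of 0.033. The probe with the highest mean log2 signal, among those well above background on at least 1 array, stood for its gene. No test or p-value was given, since each age had 1 array. Names followed RefSeq accessions (GRCm38.p6 table, 33767 probes matched), and members kept the names in the files. The members, gene lists and alternatives were chosen with earlier results of these data known. All members and the kept genes of the list of other saliva proteins could be named, and the cell type lists were given by counts, the genes named from them having been chosen after their values were seen. R 4.3.3 with limma 3.58.1 (quantile, loess with span 0.7 and 3 iterations, normexp with offset 50), Python 3.11.15, numpy 2.4.6, pandas 2.3.3 and matplotlib 3.10.9 were used, and the steps were tested on simulated data.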

Additional observations from a re-analysis of the deposited data

How the results depend on the processing

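Of 11 alternatives, 7 kept 2 members at least 2-fold higher. Some of these could not change the count of members. Every member probe was detected at both ages and had no outlier spot. Changing the filter on dim probes or keeping outlier spots therefore left its value as it was. The authors' table, being the same signals over a constant, shifted differences by only 0.006. The count of higher members was 1 with the loess, with normexp, with the mean over the probes of a gene and with the spike-in controls. The loess lost Bpifa2 and the others Amy1. The count of 1 member at least 2-fold lower was 2, with Muc19 added, with the 75th percentile taken over probes detected at both ages, with quantile normalization, with the loess and with the spike-in controls. The median member difference of 0.38 became 0 with quantile normalization, -0.44 with the loess and 0.13 with the spike-in controls. The 0 follows from the members that kept their rank on both arrays. No member past 2-fold changed its sign. Over all genes measured on both arrays, 284 higher and 571 lower became 464 and 417 with centring on the median, 107 and 209 with normexp and 151 and 915 with the spike-in controls. The median difference over probes detected at both ages shifted by 0.17 when each array was centred on the median of its non-control spots. It shifted by -0.11 with the 75th percentile of probes detected at both ages, by -0.12 with the loess and by -0.25 with the spike-in controls. For the other saliva proteins, 3 to 4 genes were lower and 4 to 6 higher. No paired analysis was possible because each age has 1 array, and for the same reason no array could be left out. Signal over background limits Amy1 and the 3 dim Muc19 probes most.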
